A study of Caenorhabditis elegans with 16 samples.

Results

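The vitellogenin genes vit-1, vit-2, vit-3, vit-4, vit-5 and vit-6 of Caenorhabditis elegans were followed across 4 groups of whole adult animals. They were taken by name from the deposited gene table, which gave 6 members among 21982 genes. All 6 passed the filter on low counts, which left 15840 genes for testing, and the lowest estimated count of any of them in any library was 431 reads.

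Vitellogenins are the precursors of yolk. In the adult hermaphrodite they are made in the intestine, secreted into the body cavity and taken up by growing oocytes through the receptor RME-2, and they bring lipid and amino acids to the embryo. vit-1 and vit-2 encode one kind of large yolk polypeptide, vit-3, vit-4 and vit-5 encode a closely related kind, and the vit-6 precursor is cut into the smaller yolk polypeptides.

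Messenger RNA was sequenced from pools of synchronised animals lysed whole, in 4 libraries per group and 16 in all, with biologically independent replicates per the labels. The fed wild-type group was N2 (Bristol) grown from the L1 larval stage on Escherichia coli carrying an empty RNAi vector and kept on food without restriction from adult day 1 to day 2. The fasted wild-type group had the same strain and vector and spent the last 24 h, from day 1 to day 2, without food. The other groups, fed and fasted in the same way, carried the jmjd-3.1 null mutation and were grown on bacteria with a cbp-1 RNAi plasmid from L1. The labels call these animals H3K27ac-deficient, and name the jmjd-3.1 allele gk384 in one field and gk387 in another. cbp-1 encodes a histone acetyltransferase of the CBP and p300 family, and jmjd-3.1 encodes a demethylase of histone H3 lysine 27. The mutation and the RNAi were always used together, so their parts cannot be told apart.

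The libraries held between 16446081 and 27792762 estimated reads. Neither targeted gene was lower in the labelled-deficient libraries. In wild type cbp-1 stood at 103 ± 16.9 counts per 1000000 reads (CPM; mean ± SD, n = 4) when fed and at 149 ± 17.99 when fasted, and in labelled-deficient at 209.6 ± 36.5 when fed and at 276 ± 30.5 when fasted. jmjd-3.1 stood at 12.3 ± 0.398, 20.0 ± 2.65, 17.4 ± 2.71 and 21.8 ± 0.921 CPM in the same order. Whether reads of jmjd-3.1 came from the deleted part was not analysed here. Every genotype difference below therefore rests on the label alone, and the groups are called labelled-deficient.

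CPM was scaled by edgeR's trimmed mean of M values (TMM), and it compares 1 gene between libraries. The TMM factors were 0.789 to 0.890 in fed wild type and 0.962 to 1.11 in the other groups, so comparisons with fed wild type depend on this scaling. With library size alone the median log2 change of all genes moved from 0.01 to 0.35 for fasting in wild type, from -0.08 to 0.22 for genotype when fed, and from 0.07 to -0.22 for the interaction. Changes are log2 differences from edgeR's quasi-likelihood test with Benjamini-Hochberg adjustment over 15840 genes, and a gene was called at an adjusted p under 0.05. In lysates of whole animals, fewer cells of a type and less RNA per cell cannot be told apart.

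vit-1 to vit-5 lie on chromosome X and vit-6 on chromosome IV of build WBcel235. vit-1 (WBGene00006925) spans X:7727889-7733168 on the plus strand and vit-2 (WBGene00006926) spans X:5101042-5106169 on the plus strand. vit-3 (WBGene00006927) spans X:3567355-3572549 and vit-4 (WBGene00006928) spans X:3558769-3563965, both on the minus strand and 3389 bases apart with no protein-coding gene that was tested between them. vit-5 (WBGene00006929) spans X:3403471-3408603 on the plus strand, and vit-6 (WBGene00006930) spans IV:8261157-8266459 on the plus strand.

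Exon number set vit-3, vit-4 and vit-5 apart, and it did not separate vit-6 from vit-1 and vit-2. vit-3, vit-4 and vit-5 have 6 exons and a coding sequence for 1603 residues each in the annotation. vit-1, vit-2 and vit-6 have 5 exons, for 1616, 1613 and 1650 residues. Because the members are close paralogues, reads that fit more than 1 of them were divided by the quantifier's estimate. Single-gene values carry that uncertainty, and sums over paralogues are given beside them. No sum of vit-3 and vit-4 alone was made.

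In fed wild-type adults the yolk genes took a large share of the estimated counts. The 6 genes together took 6.27 ± 0.514% of estimated counts (n = 4) in wild type when fed and 5.74 ± 0.548% when fasted. They took 4.06 ± 0.235% in the fed labelled-deficient group and 2.95 ± 0.303% in the fasted one. The lowest wild-type library, at 5.11%, stood above the highest labelled-deficient library, at 4.34%. Ranges of the fed and fasted groups overlapped in wild type, 5.67 to 6.88% against 5.11 to 6.22%, and did not overlap in the labelled-deficient groups, 3.79 to 4.34% against 2.58 to 3.31%. On the TMM scale explained above, the summed CPM did not overlap in wild type either, at 63725 to 81706 when fed and 47940.4 to 57954 when fasted. The fitted log2 change of the sum with fasting was -0.48 (SE 0.148) in wild type and -0.52 (SE 0.148) in labelled-deficient, with a difference of -0.04 (SE 0.208). The sum was not tested.

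By share of counts vit-2 ranked 1 among all genes in fed wild type, vit-6 ranked 2 and vit-5 ranked 3, while vit-3 ranked 12, vit-4 ranked 17 and vit-1 ranked 124. In fasted wild type vit-2, vit-6 and vit-5 kept ranks 1, 2 and 3, and vit-3 stood at 847, vit-4 at 3129 and vit-1 at 2244. In the fasted labelled-deficient group vit-3 stood at 5861 and vit-4 at 4805. By this share vit-2, vit-5 and vit-6 thus stayed within the top 4 genes in all groups. vit-1, vit-3 and vit-4 stood far down the order whenever food was withdrawn. The share is not corrected for transcript length.

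**Figure D1:**
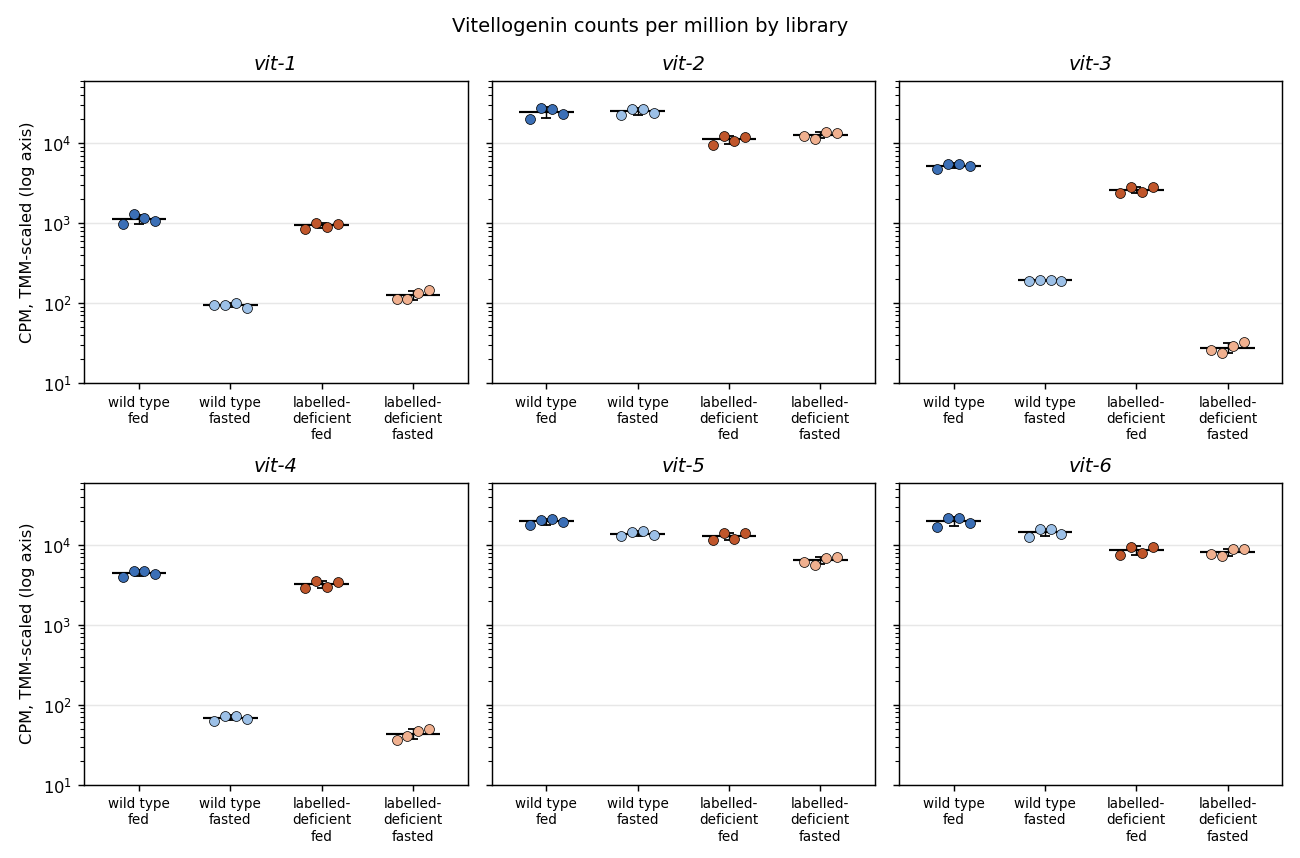
CPM (TMM-scaled, log axis) of each vitellogenin gene in every library, by group; points are libraries, the long bar is the mean and the error bar the SD over 4 libraries. vit-1, vit-3 and vit-4 separate fed from fasted animals by more than their spread in both genotypes, while vit-2 keeps overlapping fed and fasted ranges.

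Levels of different genes were compared as TPM, transcripts per 1000000 transcripts, which corrects for length. By mean TPM in fed wild type vit-2 ranked 61 among all genes, vit-5 73, vit-6 77, vit-3 281, vit-4 333 and vit-1 1476. In fed wild type the order was vit-2 at 2361 ± 314 TPM, vit-5 at 2079 ± 208, vit-6 at 1916 ± 231, vit-3 at 554 ± 49.0, vit-4 at 470.5 ± 44.7 and vit-1 at 108 ± 10.9. Neighbours vit-2 and vit-5, vit-5 and vit-6, and vit-3 and vit-4 had overlapping ranges. The group ranges therefore separated 3 levels: a high group of vit-2, vit-5 and vit-6, a middle pair of vit-3 and vit-4, and vit-1 at the bottom. Within each fed wild-type library the full order was the same, with vit-2 above vit-5, vit-5 above vit-6 and vit-3 above vit-4.

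In fasted wild type vit-2 stood at 3177 ± 335 TPM, vit-5 at 1920 ± 161 and vit-6 at 1843 ± 224. vit-3 was at 26.7 ± 0.887, vit-1 at 11.8 ± 0.753 and vit-4 at 9.54 ± 0.768. Here vit-2 stood clear of vit-5, vit-5 and vit-6 overlapped, and vit-4 had passed below vit-1.

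In the fed labelled-deficient group vit-5 led at 1862 ± 167 TPM, above vit-2 at 1482 ± 144 and vit-6 at 1143 ± 111. Below them came vit-4 at 465 ± 36.7, vit-3 at 378 ± 29.0 and vit-1 at 123 ± 7.71. No neighbours overlapped in this group, so vit-5 lay above vit-2 and vit-4 above vit-3 in each library.

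In the fasted labelled-deficient group vit-2 led at 1912 ± 204 TPM, followed by vit-6 at 1216 ± 138 and vit-5 at 1042 ± 117. The ranges of vit-6 and vit-5 overlapped, though vit-6 lay above vit-5 in each library. vit-1 was at 18.5 ± 2.34 TPM, vit-4 at 7.06 ± 0.964 and vit-3 at 4.47 ± 0.617. vit-3, the highest of the 3 lower members in fed wild type, was the lowest of all 6 here.

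The first comparison asked how the yolk genes responded to 24 h without food in wild type. vit-1, vit-3 and vit-4 fell by more than 10-fold, vit-5 and vit-6 fell by less than 1.5-fold, and vit-2 was not called. Thus 5 of 6 members were called, all lower, where 61% of all genes tested were called, 30.4% higher and 30.6% lower. Their median log2 change was -2.04, beside 0.01 over all genes.

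vit-4, a member of the vit-3 to vit-5 kind, showed the lowest wild-type value. Its CPM was 3978, 4745, 4756 and 4326 in the fed libraries and 63.2, 73.1, 72.3 and 67.3 in the fasted ones. No fasted library came near a fed one. The change was a 64.5-fold fall (log2 -6.01, SE 0.153, adjusted p = 1.76e-18), and it ranked 24 from the lowest log2 change among all genes tested.

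vit-3, the next gene along the chromosome, stood at 4750.1, 5541, 5540.5 and 5134 CPM when fed and at 190.4, 195, 197 and 190.6 when fasted. The fasted libraries were nearly equal to each other and far below the fed ones. It fell 27.1-fold (log2 -4.76, SE 0.139, adjusted p = 9.37e-18).

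vit-1, the least abundant member when fed, stood at 962, 1300.4, 1176 and 1078 CPM in fed libraries and at 94.4, 93.7, 100.03 and 87.6 in fasted ones. These groups did not overlap either. It fell 12.0-fold (log2 -3.59, SE 0.13, adjusted p = 3.51e-16).

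The abundant members behaved otherwise. vit-2, the paralogue of vit-1, gave 19860, 27705, 27121 and 23192 CPM when fed and 22297, 27080.1, 26895 and 23860.4 when fasted. The fasted values lay wholly within the fed range. The log2 difference was 0.03 (SE 0.143, 95% interval -0.28 to 0.34, adjusted p = 0.854), and it was 0.38 (adjusted p = 0.00553) with library size alone, beside the median of 0.35 over all genes in that scaling.

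vit-5 gave 17558, 20689.6, 21243 and 19104 CPM when fed and 12809, 14307, 14939 and 13447 when fasted. Every fasted library lay below every fed one. It fell 1.42-fold (log2 -0.50, SE 0.131, adjusted p = 0.00236), and with library size alone the value was -0.15 (adjusted p = 0.181).

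vit-6, the source of the smaller yolk polypeptides, gave 16617, 21646, 21869.6 and 18893 CPM when fed and 12487, 15675, 15752 and 13834 when fasted. Again the groups did not overlap. It fell 1.37-fold (log2 -0.45, SE 0.141, adjusted p = 0.0084), and with library size alone the value was -0.10 (adjusted p = 0.429).

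Summed over paralogues, so that reads shared within a kind do not matter, vit-1 plus vit-2 changed by -0.03 (SE 0.144) on the log2 scale and vit-3 plus vit-4 plus vit-5 by -1.05 (SE 0.134). These sums were not tested. vit-2 and vit-5 hold most of each sum, so the sums do not show the falls of the rarer members.

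**Figure D2:**
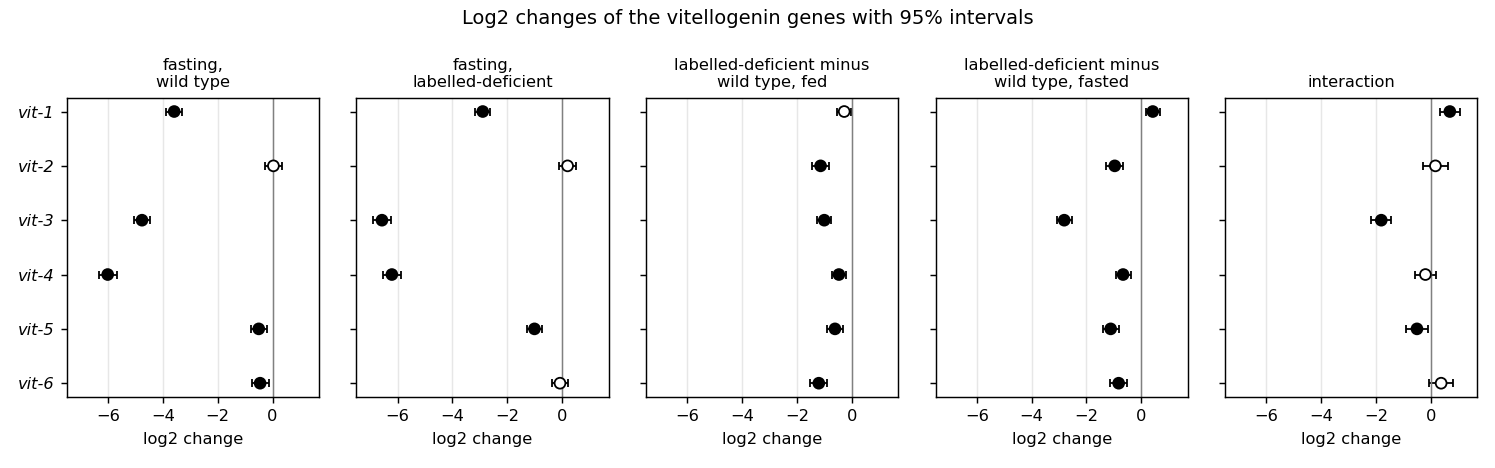
Log2 change of each vitellogenin gene in 5 comparisons, with 95% intervals from the edgeR fit; filled points were called at an adjusted p under 0.05 and open points were not. The fasting panels reach -6.01 for vit-4 in wild type and -6.57 for vit-3 in the labelled-deficient group, and the interaction is filled for vit-1, vit-3 and vit-5.

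The second comparison was fasting within the labelled-deficient groups. vit-1, vit-3, vit-4 and vit-5 fell, and vit-2 and vit-6 were not called. This made 4 of 6 called, all lower, where 35.3% of all genes were called, 19.6% higher and 15.7% lower. The median of the 6 was -1.95, beside 0.11 over all genes.

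vit-3 stood at 2377, 2823, 2435 and 2846 CPM in the fed libraries and at 25.5, 23.5, 28.9 and 32.5 in the fasted ones. The fasted libraries held 431 to 665 estimated reads of this gene each. It fell 95.1-fold (log2 -6.57, SE 0.152, adjusted p = 7.6e-19), and it ranked 3 from the lowest log2 change among the 15840 genes.

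vit-4 stood at 2913, 3495, 2998 and 3484 CPM when fed and at 36.5, 40.3, 47.3 and 50.2 when fasted, with no overlap. It fell 74.0-fold (log2 -6.21, SE 0.155, adjusted p = 1.83e-18) and came next after vit-3 in the order of log2 change. The neighbours vit-3 and vit-4 thus ranked 3 and 4 from the bottom of all genes tested.

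vit-1 stood at 846, 1014, 905 and 974 CPM when fed and at 111, 113, 135 and 144 when fasted. It fell 7.44-fold (log2 -2.90, SE 0.126, adjusted p = 2.47e-14) without overlap. vit-5 stood at 11406, 13931, 11952 and 14229 CPM when fed and at 6196, 5532, 6805 and 7076 when fasted, also without overlap. It fell 2.01-fold (log2 -1.01, SE 0.132, adjusted p = 2.46e-06).

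vit-2 gave 9548, 12451, 10571 and 12007 CPM in fed libraries and 12428, 11341, 13993 and 13432 in fasted ones. The ranges overlapped, with a log2 difference of 0.20 (95% interval -0.11 to 0.51, adjusted p = 0.29). vit-6 gave 7493, 9504, 7959 and 9462 CPM when fed and 7651, 7222, 8933 and 8818 when fasted. These overlapped as well, with a log2 difference of -0.08 (95% interval -0.38 to 0.23, adjusted p = 0.7). The sum of vit-1 and vit-2 changed by 0.10 (SE 0.144) and that of vit-3, vit-4 and vit-5 by -1.53 (SE 0.136) on the log2 scale.

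Whether fasting acted differently in the labelled-deficient animals was tested as the interaction, the fasting change in labelled-deficient minus that in wild type. vit-3 and vit-5 had a more negative change in the labelled-deficient groups and vit-1 a less negative one. These made 3 of 6 called, 1 higher and 2 lower, where 25.9% of all genes were called, 14.5% higher and 11.4% lower.

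For vit-3 the interaction was -1.81 (SE 0.171, adjusted p = 6.91e-08), the difference between changes of -6.57 and -4.76. For vit-1 it was 0.69 (SE 0.167, adjusted p = 0.00421), and for vit-5 -0.51 (SE 0.185, adjusted p = 0.0473). The vit-5 call was near the threshold. Leaving out 1 library at a time ended it in 11 of 16 fits, with adjusted p from 0.0555 to 0.109. It remained called without fed wild-type replicate 2 or 3, fasted wild-type replicate 4, fed labelled-deficient replicate 1 or fasted labelled-deficient replicate 4.

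vit-4, the neighbour of vit-3, had an interaction of -0.20 (95% interval -0.58 to 0.18, adjusted p = 0.413), and with library size alone it was -0.49 (adjusted p = 0.0141). vit-2 stood at 0.17 (95% interval -0.27 to 0.61, adjusted p = 0.559) and vit-6 at 0.38 (95% interval -0.06 to 0.81, adjusted p = 0.162). Over all 6 genes the median interaction was -0.02, beside 0.07 over all genes tested.

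Between genotypes, fed labelled-deficient adults had lower levels of vit-2 to vit-6 than fed wild type. vit-6 and vit-2 stood 2.3-fold and 2.2-fold lower, vit-3 2.0-fold, vit-5 1.53-fold and vit-4 1.38-fold. This made 5 of 6 called, all lower, where 56.2% of all genes were called, 24.6% higher and 31.7% lower. The median was -0.805 over the members and -0.08 over all genes.

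For vit-6 the fed means were 19756 ± 2492 CPM in wild type and 8604 ± 1032 in labelled-deficient (n = 4 each; log2 -1.20, SE 0.142, adjusted p = 2.91e-07). For vit-2 they were 24469 ± 3669 and 11144 ± 1333 CPM (log2 -1.13, SE 0.145, adjusted p = 8.26e-07). The per-library values above do not overlap between genotypes for either gene.

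vit-3 went from 5241 ± 379.7 CPM in wild type to 2620.1 ± 249 in labelled-deficient (log2 -1.0, SE 0.119, adjusted p = 3.17e-07). vit-5 went from 19649 ± 1663 to 12879 ± 1409 CPM (log2 -0.61, SE 0.131, adjusted p = 0.000452), and with library size alone the change was -0.32 (adjusted p = 0.0105). vit-4 went from 4451 ± 374 to 3222 ± 310.3 CPM (log2 -0.47, SE 0.123, adjusted p = 0.00278). The vit-4 call ended with library size alone, at -0.17 (adjusted p = 0.151), and in a fit of the fed libraries alone, at -0.36 (adjusted p = 0.0558).

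vit-1 was the exception when fed. Its means were 1129 ± 144 CPM in wild type and 935 ± 74.2 in labelled-deficient, with overlapping ranges, and it was not called (log2 -0.27, SE 0.117, adjusted p = 0.0525). Deviations of same-numbered fed libraries correlated at 0.114 to 0.424. Libraries of different numbers were not compared, so whether the fed groups are paired by number cannot be told. With replicate number as a block, vit-1 was called lower (log2 -0.27, SE 0.0955, adjusted p = 0.0148). Its sign turned with library size alone, at 0.03 (adjusted p = 0.837). It was also called without fed wild-type replicate 1, without fed wild-type replicate 4 and without fed labelled-deficient replicate 2, at adjusted p from 0.0165 to 0.0481.

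In fasted animals the genotypes differed in all 6 genes, and none of the ranges overlapped. How common such a lack of overlap was among all genes tested was not counted. vit-2 to vit-6 were lower in labelled-deficient and vit-1 was higher. This made 6 of 6 called, 1 higher and 5 lower, where 57.5% of all genes were called, 28.2% higher and 29.3% lower. The median was -0.90 over the members and -0.04 over all genes.

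vit-3 showed the widest gap, from 193 ± 3.19 CPM in fasted wild type to 27.6 ± 3.96 in fasted labelled-deficient, 7.01-fold lower (log2 -2.81, SE 0.129, adjusted p = 7.8e-14). vit-4, at 69.0 ± 4.64 and 43.6 ± 6.32 CPM, was 1.58-fold lower (log2 -0.66, SE 0.126, adjusted p = 0.000105). The adjacent paralogues thus differed by unequal amounts between the genotypes. vit-1, at 93.9 ± 5.09 CPM in wild type and 126 ± 16.4 in labelled-deficient, was 1.34-fold higher (log2 0.42, SE 0.119, adjusted p = 0.00431).

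Among the abundant members, vit-5 was 2.17-fold lower, from 13875 ± 938 to 6402 ± 687 CPM (log2 -1.12, SE 0.132, adjusted p = 2.76e-07). vit-2 was 1.96-fold lower, from 25033 ± 2347 to 12799 ± 1167 CPM (log2 -0.97, SE 0.144, adjusted p = 5.87e-06). vit-6 was 1.77-fold lower, from 14437 ± 1573 to 8156 ± 850.3 CPM (log2 -0.82, SE 0.141, adjusted p = 3.2e-05). Sums over paralogues went the same way, at -0.96 (SE 0.145) for vit-1 plus vit-2 and -1.13 (SE 0.134) for vit-3 plus vit-4 plus vit-5. When fed, these sums stood at -1.08 (SE 0.145) and -0.65 (SE 0.133).

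The fasting and genotype comparisons share libraries, so the values of a gene in them are not independent of each other.

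The division of yolk messages among the members can be read within each library, where no scaling between libraries enters. vit-1, vit-3 and vit-4 together made up 15.2 ± 0.43% of vitellogenin TPM in fed wild type and 17.7 ± 0.291% in fed labelled-deficient. In fasted animals they made up 0.691 ± 0.0442% and 0.716 ± 0.0481%. vit-6 held 25.6 ± 0.241% in wild type when fed and 26.3 ± 0.551% when fasted, against 21.0 ± 0.185% and 28.9 ± 0.471% in labelled-deficient. The vit-6 share was thus lowest in the fed labelled-deficient libraries and highest in the fasted ones of the same genotype.

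**Figure D3:**
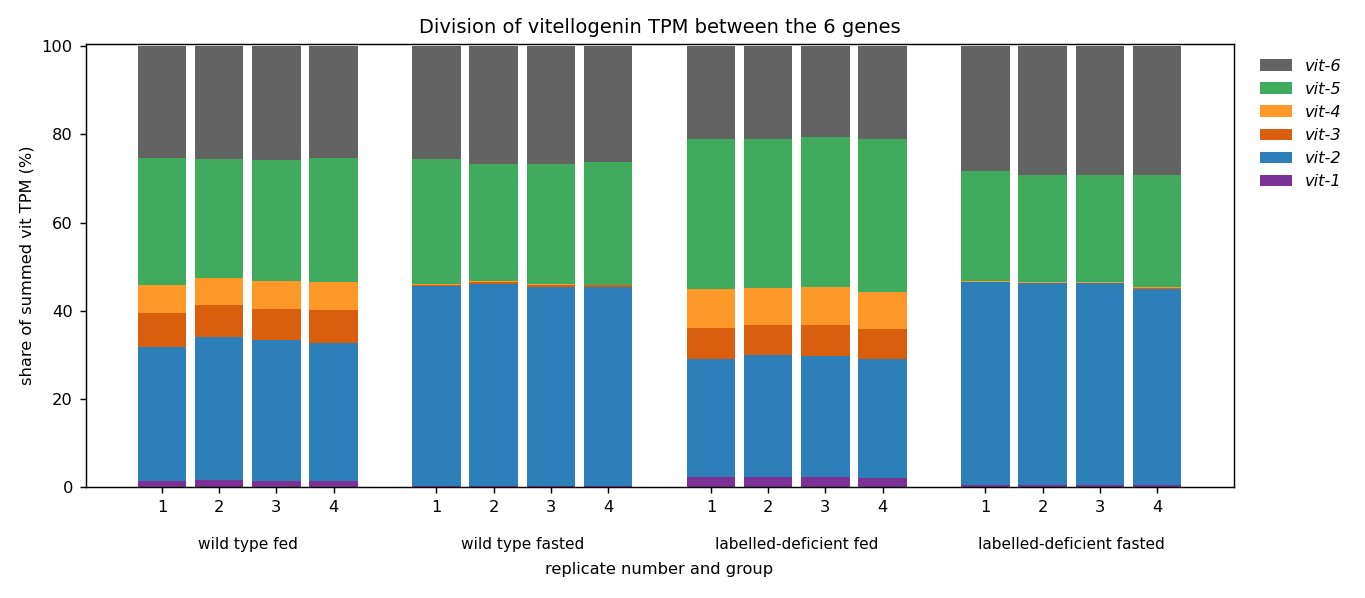
Share of summed vitellogenin TPM held by each gene, in percent, 1 bar per library grouped by condition. vit-1, vit-3 and vit-4 together hold 14.7 to 18.1% in the fed libraries and 0.656 to 0.773% in the fasted ones.

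The ratio of vit-3 to vit-4, adjacent genes of the same kind, separated all 4 groups. In TPM it was 1.19, 1.17, 1.17 and 1.19 in fed wild type and 3.01, 2.67, 2.72 and 2.84 in fasted wild type. It was 0.816, 0.808, 0.812 and 0.816 in fed labelled-deficient and 0.699, 0.582, 0.61 and 0.646 in fasted labelled-deficient. vit-3 exceeded vit-4 in every wild-type library and lay below it in every labelled-deficient library. The ratio was higher when fasted in wild type and lower when fasted in labelled-deficient. This ratio and the percentages below rest on the quantifier's division of reads shared between paralogues. How many reads were shared was not measured.

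vit-1 as a percentage of vit-2, the other member of its kind, was 4.61 ± 0.203% in fed and 0.373 ± 0.0321% in fasted wild type. It was 8.33 ± 0.326% in fed and 0.971 ± 0.0756% in fasted labelled-deficient. The labelled-deficient values lay above the wild-type values of the same feeding state in every library.

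vit-3 as a percentage of vit-5 was 26.7 ± 0.376%, 1.4 ± 0.0729%, 20.3 ± 0.338% and 0.429 ± 0.02%, the wild-type values first and each fed value before the fasted one. vit-4 as a percentage of vit-5 was 22.6 ± 0.207%, 0.497 ± 0.0112%, 25.0 ± 0.422% and 0.679 ± 0.0624% in the same order. Relative to vit-5, vit-3 was thus lower in the labelled-deficient libraries and vit-4 was higher, in both feeding states.

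Of the abundant members, vit-2 stood at 1.23 ± 0.0303 times vit-6 in wild type when fed and 1.73 ± 0.0324 times when fasted, against 1.3 ± 0.0255 and 1.57 ± 0.0426 times in labelled-deficient. The ratio of vit-3, vit-4 and vit-5 to vit-1 and vit-2 was 1.26 ± 0.075, 0.615 ± 0.0211, 1.69 ± 0.0432 and 0.546 ± 0.0207 in the same order. Both ratios separated fed from fasted libraries in each genotype without overlap.

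**Figure D4:**
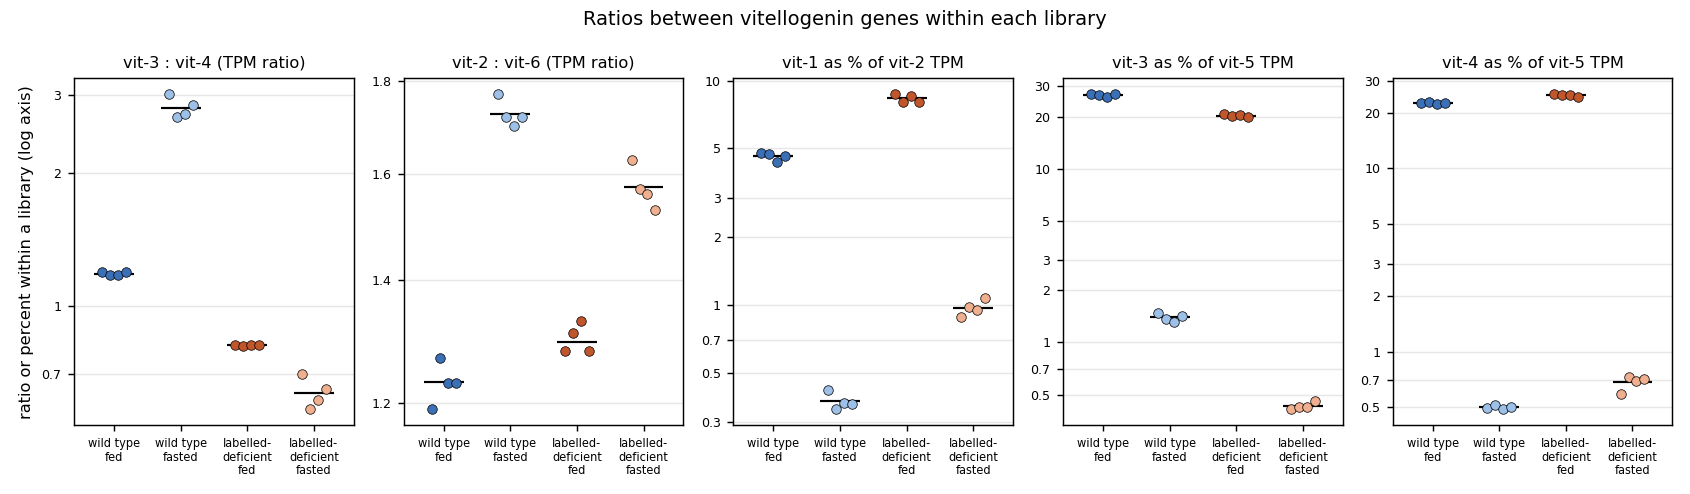
Ratios between vitellogenin genes within each library, computed from TPM, on log axes; points are libraries and bars are means of 4. The ratio of vit-3 to vit-4 lies above 1 in all wild-type libraries and below 1 in all labelled-deficient libraries.

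Several members have more than 1 transcript in the annotation used by the authors. One vit-2 transcript held 95.8 to 98.3% of that gene's reads in every library and another held 1.68 to 4.22%. One vit-6 transcript held 97.9 to 99.0% and another 1.02 to 2.09%. The gene values of vit-2 and vit-6 therefore follow 1 transcript each. vit-1, vit-3, vit-4 and vit-5 were each quantified as 1 transcript.

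Across the 16 libraries the correlations between members followed the kinds of polypeptide only in part. The Pearson correlation of log2 CPM was 0.985 between vit-1 and vit-4, 0.964 between vit-3 and vit-4 and 0.932 between vit-2 and vit-6. It was -0.11 between vit-1 and vit-2, and -0.01 between vit-2 and vit-4. vit-5 correlated at 0.855 with vit-3 and 0.703 with vit-4, both of its own kind, and at 0.827 with vit-6. These values describe 16 libraries in 4 groups and mostly reflect differences between the groups.

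Genes outside the family with the most similar pattern were ranked by correlation with the summed vitellogenin counts over the 16 libraries, among 10090 genes of at least 5 CPM on average. The closest were cal-5 (r = 0.981), pfn-2 (0.98), gob-1 (0.978), Y69H2.3 (0.978) and mdl-1 (0.978). cal-5 stood at 71.1, 37.7, 23.1 and 10.2 CPM on average, the wild-type values first and each fed value before the fasted one. Y69H2.3 had the widest range of these genes, at 705, 265, 59.3 and 17.8 CPM in the same order. The sum they resemble is carried by vit-2, vit-5 and vit-6.

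The nearest tested protein-coding gene on each side of each member was examined, and the values were mixed. spp-14, 1505 bases from vit-1 and on the same strand, fell with fasting by 1.46 in wild type and by 1.55 in labelled-deficient on the log2 scale (adjusted p = 6.55e-06 and 8.34e-06). On the other side of vit-1, set-12 lay 165 bases away on the opposite strand. It was not called for fasting in wild type (log2 0.24, adjusted p = 0.164). In labelled-deficient it was called higher (log2 0.48, adjusted p = 0.0156), a call that ended without filtering (0.0971) and without fed replicate 3 (0.057). ckc-1, 4056 bases from vit-3 on the opposite strand, had log2 changes of -1.81 and -1.135 with fasting, both called (adjusted p = 1.73e-10 and 6.53e-07). On the other side of the pair, rgs-7, 985 bases from vit-4, was not called for fasting in either genotype (log2 -0.02 and 0.19, adjusted p = 0.895 and 0.146).

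unc-78, which lies 70 bases from vit-5 on the opposite strand, was not called for fasting either (log2 0.22 and 0.06, adjusted p = 0.0786 and 0.658), and it was higher in labelled-deficient when fed (log2 0.89, adjusted p = 2.49e-07). cht-1, on the other side of vit-5, rose with fasting by 1.15 and 0.46 (adjusted p = 1.14e-08 and 0.00224). The vit-5 flanks thus did not share the direction of vit-5. Of the flanks of vit-2, acn-1 rose with fasting in wild type (log2 0.56, adjusted p = 0.00306) and C42D8.1 fell (-1.01, adjusted p = 3.1e-06). Neither was called in labelled-deficient (0.33 and -0.02, adjusted p = 0.0791 and 0.927). Beside vit-6, K07H8.7 rose in wild type (1.65, adjusted p = 5.03e-05) and was not called in labelled-deficient (0.98, adjusted p = 0.0502). K07H8.5 was not called for fasting in either genotype (-0.32 and -0.83, adjusted p = 0.414 and 0.124).

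Genes known to act on vitellogenin transcription were taken as a list of 13, all of which were tested. With fasting in wild type 2 rose and 4 fell, where 30.4% of all genes were called higher and 30.6% lower, with a list median of -0.18 beside 0.01 over all genes. daf-2, the insulin-like receptor (log2 1.12, adjusted p = 1.91e-05), and mab-3, a repressor of yolk genes in males (0.94, adjusted p = 0.033), rose. lin-29, a developmental timing factor (-1.02, adjusted p = 1.59e-05), elt-2, the main GATA factor of the intestine (-0.63, adjusted p = 3.71e-05), dbl-1, a ligand of the TGF-beta family (-0.43, adjusted p = 0.00392), and unc-62, a homeodomain activator of yolk genes (-0.29, adjusted p = 0.0321), fell. Scaled by library size alone, the count was 5 higher and 2 lower, with dbl-1 and unc-62 no longer called and unc-62 at 0.06. The mab-3 call also ended without filtering (adjusted p = 0.0612) and in 4 fits that left out fed replicate 1 or 4 or fasted replicate 1 or 3 (0.0569 to 0.107). The unc-62 call ended in 5 such fits, without fed replicate 2 or 3 or fasted replicate 1, 3 or 4 (0.0562 to 0.0882).

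With fasting in labelled-deficient 5 regulators rose and 1 fell, where 19.6% of all genes were called higher and 15.7% lower, with a median of 0.19 beside 0.11 over all genes. With DESeq2, DESeq2 size factors, no filter or only these groups in the fit, dbl-1 and elt-2 were called lower as well, which made 3 lower (dbl-1 -0.38 and elt-2 -0.35 by DESeq2, adjusted p = 0.0179 and 0.00419). daf-2 (log2 0.63), daf-16, the FOXO factor downstream of it (0.63), sma-3, a SMAD of the DBL-1 pathway (0.59), let-363, the TOR kinase (0.51), and sgk-1, a kinase of the TORC2 pathway (0.41), rose at adjusted p from 0.000284 to 0.00866. lin-29 fell by 0.49 (adjusted p = 0.0285), a call that ended without fed replicate 2 or fasted replicate 1 or 4 (adjusted p from 0.0529 to 0.0727). In the interaction 1 of 13, daf-16, was called (log2 0.84, SE 0.169, adjusted p = 0.000866), where 14.5% of all genes were called higher and 11.4% lower. At an unadjusted p under 0.05, a looser threshold without a matching share over all genes, there were 6 of 13. Without fed wild-type replicate 1, let-363, unc-62 and rict-1 were called higher too (adjusted p = 0.0456, 0.0204 and 0.0128), and the same genes without fed labelled-deficient replicate 4 (0.0109, 0.0418 and 0.0116). Leaving out fed wild-type replicate 4 gave 3 called, and 5 other libraries gave 2 each.

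Between genotypes when fed 2 regulators were higher and 8 lower in labelled-deficient, where 24.6% of all genes were called higher and 31.7% lower, with a median of -0.42 beside -0.08 over all genes. Among the lower ones were dbl-1 (log2 -1.02, adjusted p = 3.5e-07), ceh-60, the PBX-family partner of unc-62 (-0.92, adjusted p = 3.98e-06), lin-29 (-0.87, adjusted p = 8.7e-05), sgk-1 (-0.73, adjusted p = 3.87e-06) and pqm-1, a zinc finger factor of the intestine (-0.52, adjusted p = 0.000288). elt-2, unc-62 and sma-3 were lower by 0.48, 0.42 and 0.37, and let-363 and rict-1, the TORC2 subunit Rictor, were higher by 0.55 and 0.38. The counts were 3 higher and 4 lower with library size alone, and elt-2, pqm-1, sma-3 and unc-62 were no longer called. rict-1 lost its call without wild-type replicate 1 or 2 or labelled-deficient replicate 2 or 4 (adjusted p from 0.0797 to 0.187). sma-3 lost its call without replicate 4 of either genotype (0.0607 and 0.0802) and in the fit of the fed libraries alone (0.176).

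In fasted animals let-363 (log2 1.08, adjusted p = 1.42e-06), rict-1 (0.96, adjusted p = 1.58e-05) and daf-16 (0.56, adjusted p = 0.000327) were higher in labelled-deficient. dbl-1 (-0.89, adjusted p = 3.06e-06), ceh-60 (-0.55, adjusted p = 0.00111), sgk-1 (-0.47, adjusted p = 0.000517) and pqm-1 (-0.37, adjusted p = 0.00495) were lower. The list median was -0.32, beside -0.04 over all genes, where 28.2% were called higher and 29.3% lower. dbl-1, ceh-60, sgk-1 and pqm-1 were lower in labelled-deficient in both feeding states.

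Genes of yolk assembly, secretion and uptake formed a second list of 10, all tested. With fasting in wild type 2 rose and 2 fell, with a median of 0.01, where 61% of all genes were called. rme-2, the oocyte yolk receptor, fell by 1.17 (adjusted p = 9.21e-06) and rme-1, an endosomal recycling factor, fell by 0.40 (adjusted p = 0.00196). rab-7, a GTPase of late endosomes (log2 0.46, adjusted p = 0.00131), and dsc-4, the microsomal triglyceride transfer protein homologue (0.45, adjusted p = 0.000458), rose. Under library size alone 7 were called higher and 1, rme-2, lower.

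With fasting in labelled-deficient 3 transport genes rose and none fell, with a median of 0.23, where 35.3% of all genes were called. These were rab-7 (log2 0.58, adjusted p = 0.000371), dsc-4 (0.35, adjusted p = 0.00857) and rme-8, an endosomal chaperone partner (0.31, adjusted p = 0.0403), the last losing its call without fed replicate 1 or 3 or fasted replicate 1, 2 or 4 (0.0671 to 0.166). rme-8 was also not called by DESeq2 (0.138), with DESeq2 size factors (0.154), without filtering (0.23) or with only these groups in the fit (0.08), and dsc-4 was not called without filtering (0.123). In that comparison 5 of 10 had an unadjusted p under 0.05, again without a matching share over all genes. By limma-voom 0 were called lower, and DESeq2 called rme-1 lower. rme-2 stood at 0.01 (SE 0.176, adjusted p = 0.98) and its interaction was called (log2 1.17, SE 0.251, adjusted p = 0.00153).

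Between genotypes when fed 2 transport genes were higher and 3 lower, where 56.2% of all genes were called. dsc-4 (log2 -0.97, adjusted p = 3.61e-08) and rme-4, an activator of endocytic RAB GTPases (-0.51, adjusted p = 0.000325), were lower, as was rme-1 (-0.25, adjusted p = 0.0427), whose call ended without wild-type replicate 2, 3 or 4 or labelled-deficient replicate 1 or 3 (0.0693 to 0.131). chc-1, the clathrin heavy chain (0.80, adjusted p = 9.24e-05), and rme-8 (0.62, adjusted p = 8.61e-05) were higher. rme-2 was not called (0.40, adjusted p = 0.0587), and with the replicate block it was (0.38, adjusted p = 0.00188). By library size alone 7 were called higher and 1 lower, and rme-1 turned to 0.04, so the direction of this list when fed depends on scaling.

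In fasted animals 5 transport genes were higher and 2 lower in labelled-deficient, where 57.5% of all genes were called. rme-2 (log2 1.57, adjusted p = 1.81e-07), chc-1 (1.02, adjusted p = 4.01e-06), rme-8 (0.97, adjusted p = 2.78e-07), rab-5, a GTPase of early endosomes (0.46, adjusted p = 0.00508), and rme-6, an activator of it (0.41, adjusted p = 0.0136, and 0.0613 without wild-type replicate 1), were higher. dsc-4 (-1.06, adjusted p = 8.2e-09) and rme-4 (-0.36, adjusted p = 0.00525) were lower. dsc-4 and rme-4 had been lower when fed as well.

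**Figure D5:**
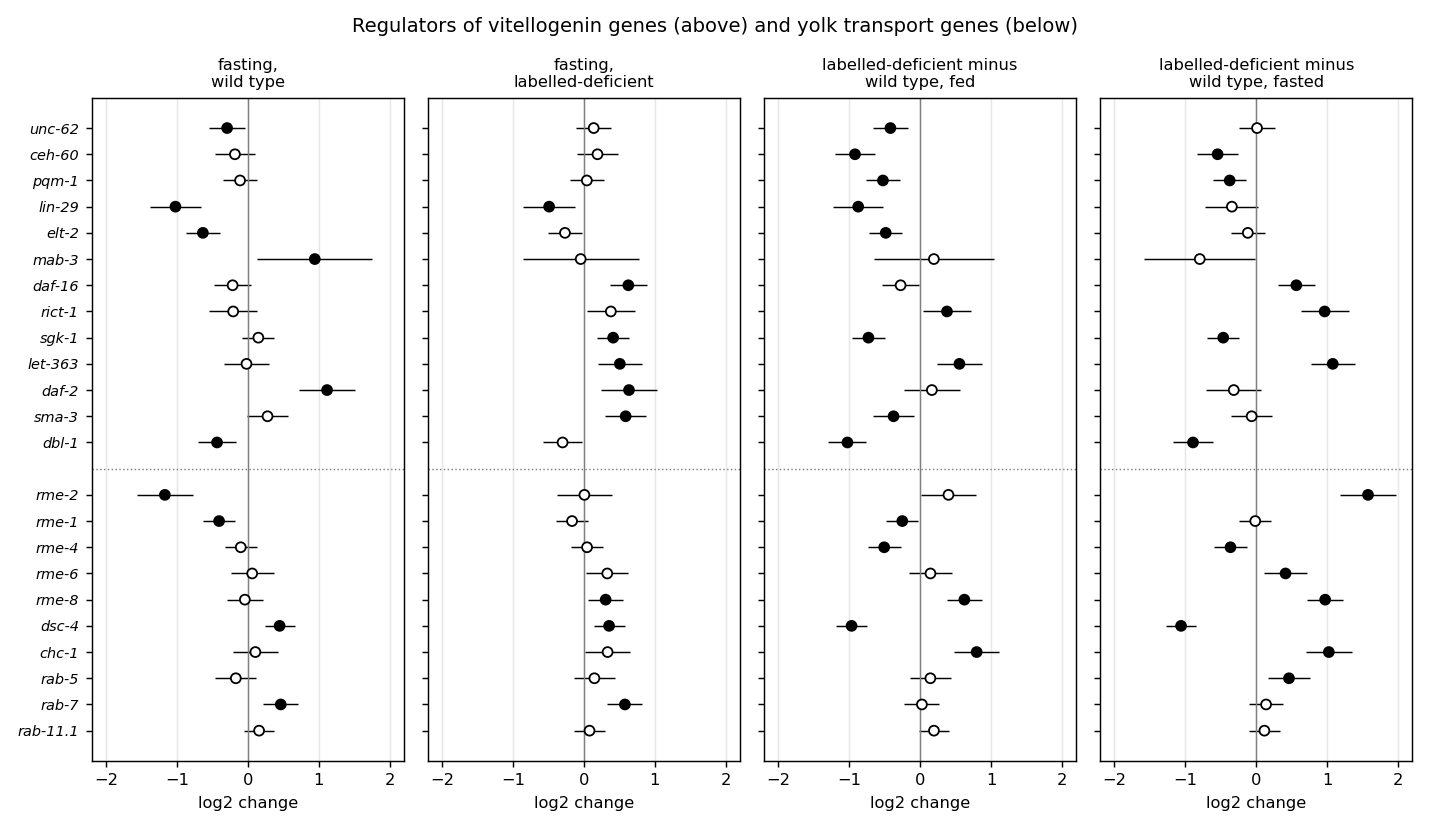
Log2 change with 95% intervals for 13 regulators of vitellogenin genes (above the dotted line) and 10 yolk transport genes (below it) in 4 comparisons; filled points were called at an adjusted p under 0.05. In labelled-deficient animals dbl-1, ceh-60 and dsc-4 lie to the left of 0 in both feeding states, and rme-2 reaches 1.57 when fasted.

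Markers of the tissue that makes yolk and of the cells that take it up differed between some of the groups. In wild type the 8 intestine markers summed to 913 ± 99.1 CPM (828 to 1031) when fed and to 270.3 ± 15.6 (258 to 293) when fasted. In labelled-deficient they summed to 415 ± 18.7 (389 to 431) when fed and to 309 ± 9.13 (302 to 322) when fasted. In fed wild type act-5 and vha-6 held most of the sum, at 441 and 244 CPM. With fasting in wild type 6 of 8 were called lower and 2 higher, where 30.6% of all genes were called lower and 30.4% higher. The higher ones were ges-1 and elt-7 (log2 0.90 and 0.64, adjusted p = 2.52e-07 and 0.00135). ges-1 rose with fasting in labelled-deficient as well (log2 0.68, adjusted p = 6.66e-05). With genotype when fed 7 were called lower and none higher, where 31.7% of all genes were called lower and 24.6% higher. With fasting in labelled-deficient 3 were called higher and 3 lower, beside 19.6% and 15.7% of all genes. Of the higher ones, pept-1 and vha-6 were not called by DESeq2 (adjusted p = 0.0776 and 0.164). With genotype when fasted 2 were higher and 2 lower, beside 28.2% and 29.3%. For the interaction 4 were higher and 0 lower, beside 14.5% and 11.4%. In the fed genotype comparison 7 of 8 had an unadjusted p under 0.05, again without a matching share over all genes. The number called higher there was also 0 by limma-voom and by DESeq2, while elt-7 was called higher with library size alone (adjusted p = 0.0262) and without wild-type replicate 1 (0.0365).

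In wild type the 10 oocyte and germ line markers summed to 3748 ± 797 CPM (2899.6 to 4817) when fed and to 2018 ± 138 (1897 to 2209) when fasted. In labelled-deficient they summed to 4354 ± 1193 (3288 to 5825) when fed and to 4471 ± 621 (3752 to 5213) when fasted. All 10 were called lower with fasting in wild type, where 30.6% of all genes were called lower. The glp-1 call ended without fed replicate 4 or fasted replicate 1 (adjusted p = 0.083 and 0.0597), and those of glp-1, oma-1 and spn-4 ended with library size alone. With fasting in labelled-deficient none was called by edgeR, where 35.3% of all genes were called. At an unadjusted p under 0.05 there were 2, without a matching share over all genes, and DESeq2 called 1 and limma-voom called 0. In fasted animals all 10 were called higher in labelled-deficient, with a median of 1.24, where 28.2% of all genes were called higher. All 10 were called higher in the interaction as well, with a median of 0.86, where 14.5% of all genes were called higher. With library size alone 4 of 10 were called in the interaction, a scaling in which the median over all genes was -0.22. oma-2 lost its interaction call in 11 fits that left out 1 library (adjusted p from 0.0509 to 0.0812). rme-2, whose values are given above among the transport genes, is one of these markers. Its part apart from the other oocyte markers was not tested. No marker of either list was at 0 in any library. The part of these markers in the vitellogenin differences was not tested.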

How the data were processed

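The authors' gene table holds estimated counts, and the authors deposited a table of estimated counts and TPM per transcript for each library, per the file headers. Salmon 1.9.0 and R 4.3.2 are named in the submitters' processing notes, with builds WBcel235 and ce11. The counting of strand is not given in the sources used here. Estimated counts were rounded and fitted with edgeR 4.0.16 in R 4.3.3: filterByExpr, TMM, 1 coefficient for each of 4 groups of 4 libraries, robust quasi-likelihood F-test, Benjamini-Hochberg over 15840 genes at 0.05. Log CPM for correlations used a prior count of 2. Intervals use 12 residual degrees of freedom and cover 95%. TPM was summed per gene. The fit was tested on simulated data. No replicates agreed within sampling noise.

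The members and lists were chosen with earlier results of these data known. All members are named; of the lists, genes called in a comparison, and the 5 genes most correlated with the members.

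Alternatives were DESeq2 1.42.0, limma-voom (limma 3.58.1), DESeq2 size factors, library size alone, library sizes and TMM without the members, no filter, only the groups compared, a replicate block and leaving out each library. Replicate numbers come from the titles, and the labels' protocol speaks of 4 replicate experiments without tying the numbers to them. Deviations from group means of same-numbered libraries correlated at 0.114 to 0.424 between the fed groups. The main fit used no pairing in any comparison, and the replicate block was an alternative only. Sequences of the members were not analysed here.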

Additional observations from a re-analysis of the deposited data

Results flagged for a closer look

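The fasting response of 3 vitellogenin genes differed between the genotypes by the interaction test. vit-1 was flagged at 0.69 on the log2 scale, vit-3 at -1.81 and vit-5 at -0.51. With library size alone they stood at 0.39, -2.10 and -0.80, and all 3 were still called. Among 24 sets of 4 libraries (6 genes in 4 groups), none held a library set apart from the other three by Dixon's rule.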

How the results depend on the processing

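Of 234 recalculated changes of single members other than leaving out a library, 223 kept their direction and call, and so did 271 of 288 that left out 1. vit-2 for fasting in wild type turned to -0.0664 without filtering and to -0.0609, -0.00996 and -0.00664 without fed replicate 1 and fasted replicates 2 and 3, never called; its highest such value was 0.0908, without fed replicate 2. With library size alone, vit-1 for genotype when fed turned to 0.0263 and vit-2 for the interaction to -0.13. Leaving out libraries gave a vit-5 interaction from -0.56 to -0.44. Without filtering it was -0.51 (adjusted p = 0.0517). As a share of TPM the 6 genes held 0.749, 0.699, 0.545 and 0.42% in fed and fasted wild type and fed and fasted labelled-deficient; transcripts under 500 bases held 26.5 to 34.8% of TPM but 6.03 to 9.93% of reads. From estimated counts the ratio of vit-3, vit-4 and vit-5 to vit-1 and vit-2 was 1.16, 0.564, 1.55 and 0.501, and the vit-6 share was 26.4, 21.8 and 29.6% in fed wild type, fed and fasted labelled-deficient. The order of the members' mean TPM was the same in all 4 groups when each library was left out. It was also the same when counts per kilobase scaled by TMM were used. Within a library those counts are proportional to TPM, so that alternative could change only the weight of each library in a mean.

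With the replicate block, vit-1 when fed was called at -0.27, and no other vitellogenin call changed. Same-numbered libraries correlated at 0.075 to 0.342 for fasting in wild type, 0.011 to 0.227 for fasting in labelled-deficient and -0.047 to 0.159 between the fasted groups. Libraries of different numbers were not compared in this way, so whether any of the groups are paired by number cannot be told. The block took the genes called from 4109 to 6422 for the interaction, and the regulators called there from 1 to 5. It took the genes called from 9657 to 10692 for fasting in wild type and from 5594 to 7406 for fasting in labelled-deficient. For genotype when fasted they went from 9114 to 10000. What the depth limits is the rarest member, vit-3 in fasted labelled-deficient animals, at 431 to 665 reads.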
